A study of Mus musculus with 217 samples.

Results

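The 19 striatal libraries from 12-month-old mice, each from 1 mouse, came from 9 LacQ140_8M mice (4 females, 5 males) and 10 LacQ140_2M mice (5 females, 5 males). They were chosen by their labelled group, tissue and age, and make up 19 of the 217 libraries of the series. All 19 mice were of C57BL/6 background and carried 1 *Htt* allele with an expanded CAG tract of the 140Q line and *Lac* operators in its promoter, and a β-actin-driven *Lac* repressor transgene (LacIR) that is active in the whole body. IPTG holds the repressor off the operators, so that the mutant allele (m*Htt*) is expressed while IPTG is given, here from embryonic day 5 in both groups. It was withdrawn at 8 months of age in LacQ140_8M mice and at 2 months in LacQ140_2M mice. This left 4 and 10 months of lowering before the tissue was taken. The paper describes this lowering as moderate. Because both groups were sampled at 12 months, the age at withdrawal, the length of lowering and the length of exposure to IPTG cannot be told apart. The comparison asks which genes depend on the earlier withdrawal, and no library of LacQ140 mice kept on IPTG enters it. The direction of the disease came from other mice of the same striatal data set, namely LacQ140 on IPTG, WT and WT + IPTG, which carry the repressor without the expanded allele, and LacQ140_A, which carry the allele and were never given IPTG.

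Most neurons of the striatum are spiny projection neurons, which receive dopamine and cortical glutamate and carry either the D1 or the D2 dopamine receptor. In Huntington's disease these neurons lose transcripts that mark their identity, such as receptors, phosphodiesterases, ion channels and neuropeptides. Genes that pattern the embryo, including homeobox genes, are normally kept silent in adult striatal neurons by Polycomb group repressors, and loss of that silencing has been described in striatal cells carrying m*Htt*.

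The files hold expected counts, in which reads were shared out among genes by estimation, and the 19 libraries held between 33292057 and 47625751 counts. Levels are given in CPM, the count of a gene divided by the scaled size of its library. Sex-linked genes went against the label in 0 libraries, and no pair of replicates was close to identical (lowest chi-square per degree of freedom 8.05 over 81 pairs). Of the direct and indirect pathway spiny neuron genes, 0 were at 0 in every library of a group. The library LacQ140_2M F4 stood apart, with the lowest summed level of 31 spiny neuron signalling genes in either group (13330 CPM, next lowest in its group 17010 CPM) and the highest of 7 thalamic and other subcortical markers (287 CPM, next 157 CPM in LacQ140_8M F2). Main results that turn on it are given with and without it. In tissue, fewer cells of a type and less RNA per cell cannot be told apart.

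*Htt* itself, counted from both alleles, was at 93.0 CPM at the lowest, 112 CPM at the median and 120 CPM at the highest in LacQ140_8M. In LacQ140_2M the corresponding levels were 85.1, 101 and 119 CPM. The 2 ranges overlapped. The log2 fold change of LacQ140_8M minus LacQ140_2M (log2 FC, given ± its SE) was 0.15 ± 0.057 by edgeR. It did not pass the threshold of 0.05 (adjusted p = 0.37). LacQ140 mice kept on IPTG ran from 96.7 to 123.5 CPM with a median of 113 CPM, close to the LacQ140_8M median. LacQ140_A mice had a median of 91.0 CPM. The difference in *Htt* between LacQ140_8M and LacQ140 was not tested. The level of the mutant allele alone cannot be read from these counts. *Abhd1*, a gene on chromosome 5 like *Htt*, was at a median of 7.32 CPM after late and 7.12 CPM after early withdrawal, with overlapping groups (log2 FC 0.07 ± 0.077, adjusted p = 0.72).

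Of 32415 genes with at least 1 count, 21 were called by edgeR's quasi-likelihood test, with both an adjusted p of less than 0.05 and a level shifted by 20% or more, which is 0.0648% of the genes tested. Of these, 13 were higher after late withdrawal (0.0401% of those tested) and 8 were lower (0.0247%). The genes that were higher include the homeobox genes *Hoxc4*, *Hoxc5*, *Onecut1*, *Onecut2* and *Lmx1b* and the zinc finger gene *Wt1*, and the genes that were lower include *Hrk*, *Wnt8b* and *Gpx6*. Without the bound of 20%, 25 genes passed, and 3226 genes had an unadjusted p-value under 0.05. The groups did not overlap for 5 of the 21 called genes, *Hoxc4*, *Onecut1*, *C130021I20Rik*, *Crnde* and *Ccdc155*, against 8 of all 32415 genes tested (0.0247%). All 5 lie below an average of 1 log2 CPM, from which on genes are called expressed here (13477 genes). In 19 fits that each left out 1 library, 15 of the 21 genes were called every time. The count of calls rested on single libraries, with 71 genes without LacQ140_2M F4 and 102 without LacQ140_8M F5, and each of the 21 was among both. LacQ140_8M F5 had the lowest slope of log2 CPM on log2 transcript length in its group, 0.267 against a group median of 0.383, and its part in that count was not tested.

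Each of the 21 genes had also changed between LacQ140 and WT + IPTG mice, in the same direction. The late median lay beyond that of LacQ140 for *Onecut2* (37.4 against 28.6 CPM), *Greb1l* (6.07 against 5.45 CPM) and *Cep192* (6.92 against 6.42 CPM). That difference was not tested. LacQ140 and WT + IPTG striatum differed in 3243 of the genes tested (9.46%), and 3242 of these formed the signature after removal of a gene that also answered to IPTG in WT mice. Signature genes were 10.0% of the genes tested between LacQ140_8M and LacQ140_2M, and 100% of the called genes. That share was 43.1% without LacQ140_8M F5, where 58 of 102 called genes lay outside the signature, and 76.1% without LacQ140_2M F4. By DESeq2 it was 69.6%, with 17 of 56 outside. The 13 higher genes had risen in LacQ140 mice and the 8 lower genes had fallen. With all 6 groups in one fit 77 genes answered to IPTG, and 0 of the 21 were among them. Of the 71 genes that rise and 195 that fall in the striatum of several HD mouse models, a published list given by the study (hereafter HD-model genes), 12 were called, each in its listed direction (4.51%).

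The gene with the smallest p-value was *Hoxc4*, a homeobox transcription factor that patterns the hindbrain and spinal cord. It was at 0.532, 1.004 and 1.87 CPM (lowest, median and highest) in LacQ140_8M and at 0.0225, 0.117 and 0.287 CPM in LacQ140_2M, that is, at 22 to 90 counts per library against 1 to 14. Every late library lay above every early one (log2 FC 3.19 ± 0.296, adjusted p = 2.276e-07). WT + IPTG libraries reached at most 0.0488 CPM and LacQ140_A libraries 0.192 CPM, whereas LacQ140 libraries had a median of 2.05 CPM.

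*Hoxc5*, its neighbour in the HoxC cluster, ran from 0.218 to 1.22 CPM with a median of 0.627 CPM after late withdrawal and from 0 to 0.229 CPM with a median of 0.0976 CPM after early withdrawal. In all, 8 of 9 late libraries lay above all early ones (log2 FC 2.86 ± 0.386, adjusted p = 0.00018). *Hoxc6*, next in the cluster, had means of 0.119 and 0.0401 CPM and did not pass (log2 FC 1.49 ± 0.441, adjusted p = 0.21). The annotated spans of *Hoxc5*, *Hoxc6*, *Hoxc8* and *Hoxc10* overlap on one strand, so that reads of shared exons could be split between them.

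*Onecut1*, a transcription factor of liver, pancreas and retina, was at 1.12, 1.86 and 3.01 CPM in LacQ140_8M and at 0.567, 0.830 and 1.07 CPM in LacQ140_2M. The groups did not overlap (log2 FC 1.32 ± 0.162, adjusted p = 6.611e-05). LacQ140_A had a median of 0.282 CPM, and the median was 0 CPM in both WT groups. *Gm16551*, a noncoding transcript that ends 1.79 kb before *Onecut1* on the same strand, had medians of 0.339 and 0.0328 CPM, and 8 of 9 late libraries lay above all early ones (log2 FC 3.0 ± 0.456, adjusted p = 0.00041). A transcript annotated as *Gm20649* overlaps both on that strand. *Onecut2*, the related factor that adult striatum does express, was at 27.2, 37.4 and 44.3 CPM against 19.7, 25.9 and 32.7 CPM (log2 FC 0.45 ± 0.085, adjusted p = 0.018), and 6 of 9 late libraries lay above all early ones. Its call was lost in 3 of the 19 fits that left out 1 library, with the length slope as a covariate, in each sex alone and without the 7 libraries highest in markers of other tissues, with a log2 FC between 0.41 and 0.53.

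*Wt1* (chr2:105126529-105173616, GRCm38), a zinc finger transcription factor of kidney and gonad, was at 3.49, 4.74 and 5.48 CPM after late and at 1.65, 2.23 and 3.76 CPM after early withdrawal. A single late library lay inside the early range (log2 FC 0.94 ± 0.125, adjusted p = 0.00018). The median in WT + IPTG was 0.0756 CPM, and the late median of 4.74 CPM stood beside 4.90 CPM in LacQ140.

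*Lmx1b*, a LIM homeobox factor of limb and midbrain neurons, and *C130021I20Rik*, a transcript annotated 0.682 kb from it on the other strand, were both higher after late withdrawal. *C130021I20Rik* was at 0.226, 0.522 and 0.704 CPM in LacQ140_8M and at 0, 0.1 and 0.180 CPM in LacQ140_2M, with no overlap (log2 FC 2.26 ± 0.326, adjusted p = 0.00041). *Lmx1b* was at 0.145, 0.405 and 1.05 CPM against 0.0678, 0.137 and 0.310 CPM, and the groups overlapped (log2 FC 1.63 ± 0.316, adjusted p = 0.023). Its call held in 13 of the 19 fits without 1 library.

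RefSeq start regions of these genes are shown because neighbouring genes moved together and because the CG dinucleotide, in capitals, is the unit of the CpG islands to which Polycomb complexes are recruited. Each sequence is a RefSeq promoter window on build GRCm38.p6, from 250 bases before to 50 bases after the start, printed in the direction of the gene. The RefSeq start used for *Hoxc4* lies inside the longer GENCODE span of that gene (chr15:103018934-103036852), so that its window is not at the GENCODE start, and that of *Lmx1b* lies outside the GENCODE span. The window of *Hoxc4* lies at chr15:103034145-103034444 on the plus strand, *Onecut1* at chr9:74861671-74861970 on the plus strand, *C130021I20Rik* at chr2:33640943-33641242 on the plus strand, *Lmx1b* at chr2:33641049-33641348 on the minus strand, and *Gpx6*, a gene that was lower, at chr13:21311953-21312252 on the plus strand.
Hoxc4: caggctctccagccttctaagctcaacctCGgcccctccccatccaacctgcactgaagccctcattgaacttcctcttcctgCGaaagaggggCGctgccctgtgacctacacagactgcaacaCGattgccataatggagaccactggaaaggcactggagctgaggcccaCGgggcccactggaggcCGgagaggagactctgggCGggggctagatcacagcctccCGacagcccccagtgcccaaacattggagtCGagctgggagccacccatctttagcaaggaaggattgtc
Onecut1: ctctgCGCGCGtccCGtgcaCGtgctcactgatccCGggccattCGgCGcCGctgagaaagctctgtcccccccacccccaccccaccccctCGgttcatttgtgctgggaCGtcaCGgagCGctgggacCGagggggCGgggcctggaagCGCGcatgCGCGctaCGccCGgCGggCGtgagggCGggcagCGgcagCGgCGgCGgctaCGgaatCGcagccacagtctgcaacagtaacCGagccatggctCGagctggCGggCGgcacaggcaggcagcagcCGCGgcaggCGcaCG
C130021I20Rik: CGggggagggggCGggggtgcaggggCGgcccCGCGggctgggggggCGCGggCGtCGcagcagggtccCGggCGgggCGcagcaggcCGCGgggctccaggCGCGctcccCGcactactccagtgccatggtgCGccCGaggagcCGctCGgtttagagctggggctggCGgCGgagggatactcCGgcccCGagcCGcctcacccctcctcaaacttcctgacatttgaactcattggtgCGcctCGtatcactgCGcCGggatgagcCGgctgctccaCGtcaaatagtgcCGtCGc
Lmx1b: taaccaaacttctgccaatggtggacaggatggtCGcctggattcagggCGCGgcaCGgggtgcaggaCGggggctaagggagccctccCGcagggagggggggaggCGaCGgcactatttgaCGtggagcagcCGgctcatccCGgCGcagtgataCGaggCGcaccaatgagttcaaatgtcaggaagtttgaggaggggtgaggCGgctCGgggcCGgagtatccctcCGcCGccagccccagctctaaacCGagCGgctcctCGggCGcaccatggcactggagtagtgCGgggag
Gpx6: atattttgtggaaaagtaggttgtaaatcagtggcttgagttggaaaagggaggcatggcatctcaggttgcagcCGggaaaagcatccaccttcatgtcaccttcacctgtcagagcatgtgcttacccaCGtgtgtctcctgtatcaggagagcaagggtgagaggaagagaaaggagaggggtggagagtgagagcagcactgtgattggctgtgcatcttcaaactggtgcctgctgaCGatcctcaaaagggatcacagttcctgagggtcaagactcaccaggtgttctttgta

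The *Lmx1b* and *C130021I20Rik* windows share 194 bases, read on opposite strands, and hold 24 and 34 CG. The *Onecut1* window held 38 CG, the *Hoxc4* window 9 and the *Gpx6* window 3. Among windows not shown, that of *Hrk*, which was lower, held 29 CG, and that of *Sfmbt2*, which was higher, held 9. Windows were given for 15 of the 21 called genes. The 8 higher genes with a window had a median of 21.5 CG and the 7 lower genes a median of 6. The median was 15 over 17147 tested genes with a window and 21 over the expressed ones. At least 10 CG stood in 6 of the 8 higher windows (75.0%) and 2 of the 7 lower ones (28.6%). That share was 61.7% over all windows and 83.6% over those of expressed genes. Among the 4 motifs searched on both strands, the E-box CACGTG stood in the windows of *Onecut1*, *Vgll2* and *Gpx6*, against 8.58% of all windows, and AP-1 (TGACTCA) stood in that of *Itga9*, against 4.45%. Neither CRE (TGACGTCA), in 2.52% of all windows, nor the EGR motif (GCGTGGGCG), in 0.94%, stood in any of the 15. A match of letters is not a binding site.

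The other higher genes had varied roles. *Sfmbt2*, a Polycomb group protein, was at 5.49, 6.07 and 6.92 CPM after late and at 3.30, 4.36 and 5.72 CPM after early withdrawal, with 8 of 9 late libraries above all early ones (log2 FC 0.51 ± 0.086, adjusted p = 0.0053). *Crnde*, a long noncoding RNA, was at 1.58, 1.81 and 2.44 CPM against 0.563, 1.22 and 1.45 CPM, with no overlap (log2 FC 0.73 ± 0.131, adjusted p = 0.013). Its log2 FC lay between 0.64 and 0.78 in the alternatives run, and its call was lost with the replicate block, in each sex alone and without the 7 libraries highest in markers of other tissues. *Irx5*, a homeobox gene 1.505 kb from *Crnde*, had means of 0.326 and 0.207 CPM and did not pass (log2 FC 0.66 ± 0.264, adjusted p = 0.38). *Vgll2*, a cofactor of TEAD transcription factors in muscle, reached only 0.251 CPM in the highest late library, or 10 counts, and its call held in 6 of 19 fits without 1 library. *Greb1l*, needed for kidney development (medians 6.07 and 4.38 CPM, log2 fold change 0.44, adjusted p = 0.023), and *Cep192*, a centrosome protein (6.92 and 5.08 CPM, log2 fold change 0.39, adjusted p = 0.036), held in 10 and 7 of those fits.

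**Figure D1:**
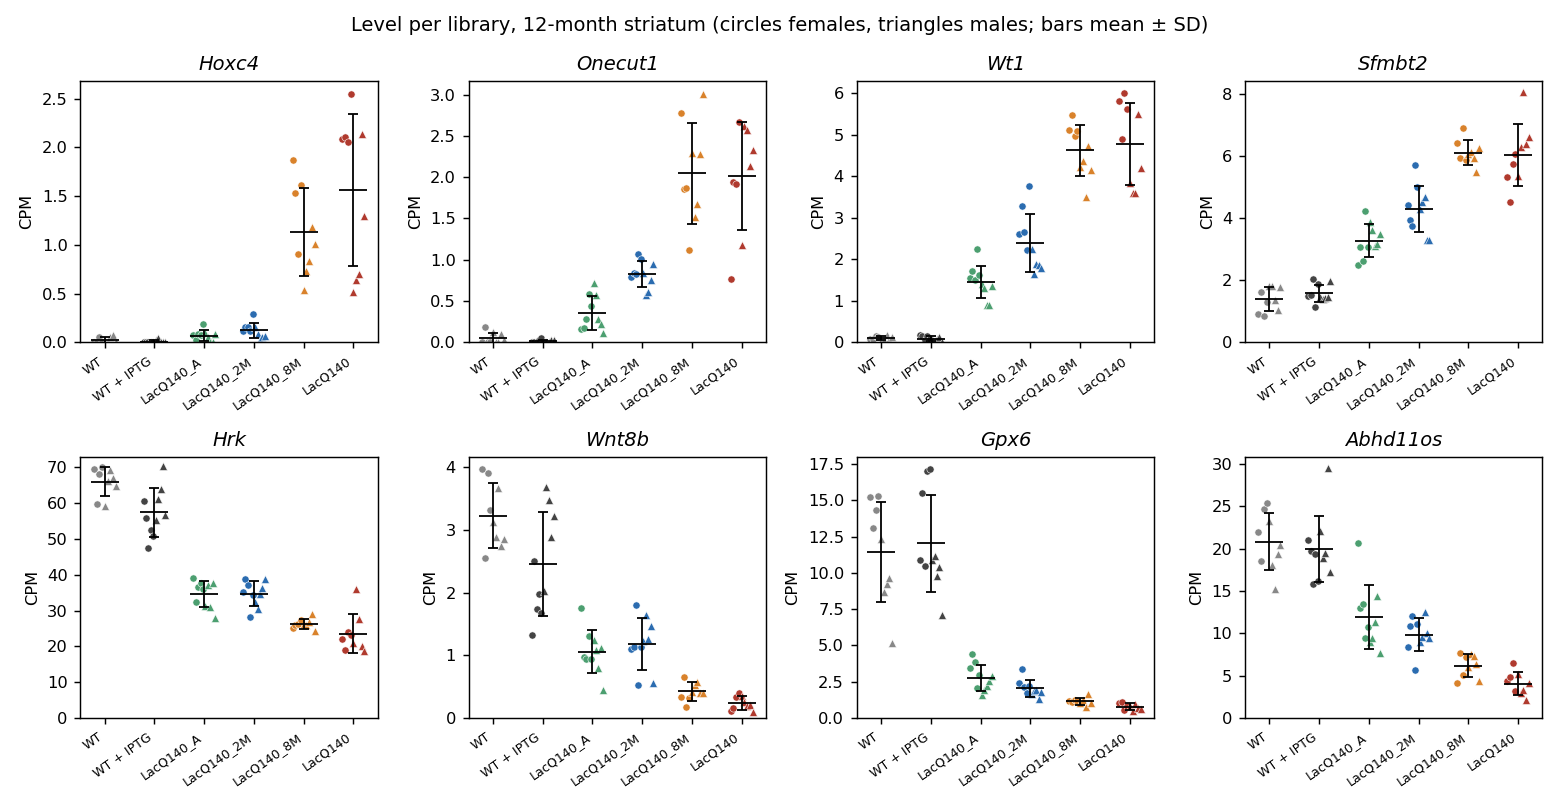
Level in CPM of 8 called genes in each library of the 12-month striatum, by group on the horizontal axis, with circles for females, triangles for males and bars for the mean ± SD. For *Hoxc4* all LacQ140_8M libraries, from 0.532 to 1.87 CPM, lie above all LacQ140_2M libraries, which reach 0.287 CPM, and for *Gpx6* the LacQ140_8M libraries lie between 0.756 and 1.63 CPM.

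The called gene of smallest p-value among those that were lower was *Hrk* (chr5:118164648-118189478, GRCm38), a BH3-only protein that promotes apoptosis in neurons. It was at 24.2, 26.2 and 28.9 CPM in LacQ140_8M and at 28.3, 34.9 and 38.9 CPM in LacQ140_2M, so that 8 of 9 late libraries lay below all early ones (log2 FC -0.39 ± 0.056, adjusted p = 0.00041). The WT + IPTG median was 56.2 CPM and that of LacQ140_A 36.2 CPM.

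*Wnt8b*, a secreted Wnt ligand, was at 0.169, 0.402 and 0.661 CPM after late and at 0.520, 1.18 and 1.80 CPM after early withdrawal (log2 FC -1.47 ± 0.224, adjusted p = 0.0012), with 6 of 9 late libraries below all early ones. *Gpx6*, a glutathione peroxidase that reduces peroxides, was at 0.756, 1.16 and 1.63 CPM against 1.31, 1.91 and 3.37 CPM, with 8 of 9 below all early ones (log2 FC -0.83 ± 0.149, adjusted p = 0.013). The log2 FC of *Gpx6* lay between -1.001 and -0.60 in the alternatives run, and its call was lost in 5 of 30, namely with the replicate block, with all 6 groups in the fit, with the slope on transcript length as a covariate and in each sex alone. Both early medians were under those of WT + IPTG, at 2.27 and 10.9 CPM. Of 8 glutathione peroxidase genes, *Gpx6* alone was called, and *Gpx1* and *Gpx4*, the abundant ones, had log2 fold changes of -0.10 and -0.09 (adjusted p = 0.49 for each).

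*Abhd11os*, a noncoding RNA that overlaps *Abhd11* on the other strand, was at 4.17, 6.39 and 7.68 CPM against 5.66, 9.76 and 12.5 CPM (log2 FC -0.67 ± 0.121, adjusted p = 0.013), and 3 of 9 late libraries lay below all early ones. *Abhd11*, at means of 20.3 and 21.2 CPM, had a log2 fold change of -0.06 (adjusted p = 0.72). *Itga9*, an integrin subunit, had medians of 13.7 and 17.5 CPM (log2 FC -0.34 ± 0.063, adjusted p = 0.018), and lies across the antisense gene *Gm2415*, which had means of 48.0 and 52.8 CPM. The *Itga9* call was lost with the replicate block, in females alone and without the 7 libraries highest in markers of other tissues (log2 FC between -0.45 and -0.22), and that of *Abhd11os* with the length slope and in females alone (-0.74 to -0.53). Where the counting did not use strand, reads of such overlapping pairs cannot be told apart.

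*Dglucy*, a mitochondrial enzyme that breaks down D-glutamate, had medians of 8.58 and 10.6 CPM and a log2 FC of -0.34 ± 0.062 (adjusted p = 0.015). Its call was lost in the same 4 alternatives as that of *Crnde*, with a log2 FC between -0.37 and -0.32 throughout. *Clec12a*, an inhibitory lectin receptor of myeloid cells, had medians of 3.89 and 5.24 CPM (log2 FC -0.44 ± 0.081, adjusted p = 0.018). The summed level of 13 microglia markers ran from 686 to 850 CPM in LacQ140_8M and from 696 to 859 CPM in LacQ140_2M, and all 5 blood markers had a negative sign, with a median log2 FC of -0.49, and the part of either in the *Clec12a* result was not tested. The log2 FC of *Clec12a* stayed between -0.50 and -0.36 in every alternative run, and its adjusted p missed the threshold in 6 of 30, with the replicate block, all 6 groups in the fit, the length slope as a covariate, each sex alone and without the 7 libraries highest in markers of other tissues. *Ccdc155*, which joins meiotic chromosomes to the nuclear envelope, was at 0.394, 0.622 and 0.677 CPM against 0.714, 0.888 and 1.31 CPM with no overlap (log2 FC -0.75 ± 0.153, adjusted p = 0.039), but its call held in 9 of 19 fits without 1 library.

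A further 4 genes passed the adjusted p-value with a change under 20%, and each was lower after late withdrawal. *Scn4b*, the β4 sodium channel subunit of spiny neurons, was at 730, 800 and 882 CPM in LacQ140_8M and at 777, 969 and 1054 CPM in LacQ140_2M (log2 FC -0.24 ± 0.047, adjusted p = 0.021). *Ptpn5*, the striatum-enriched phosphatase STEP, had means of 565 and 670 CPM (log2 FC -0.24 ± 0.047, adjusted p = 0.021). *Rap1gap*, which switches off the GTPase Rap1, had a log2 FC of -0.21 ± 0.039 (adjusted p = 0.018), and *Kcnip3*, a calcium-binding partner of potassium channels, -0.25 (SE 0.050, adjusted p = 0.041).

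The dopamine receptors and the main enzymes of cyclic AMP signalling were not called. *Drd1*, the D1 receptor, had medians of 173 CPM in both groups and a log2 FC of -0.02 ± 0.063 (adjusted p = 0.94). *Drd2*, the D2 receptor, had medians of 201 and 221 CPM (log2 FC -0.06 ± 0.065, adjusted p = 0.73). *Pde10a*, the phosphodiesterase of spiny neurons, had medians of 831 and 846 CPM (log2 FC -0.05 ± 0.058, adjusted p = 0.72). LacQ140 mice had lower medians for all 3, at 148, 191 and 617 CPM, but their ranges overlapped those of LacQ140_8M and LacQ140_2M. These differences were not tested.

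*Ppp1r1b*, which encodes DARPP-32, had a log2 FC of -0.12 ± 0.068 (adjusted p = 0.58), and *Adcy5*, the adenylyl cyclase of spiny neurons, -0.15 (SE 0.050, adjusted p = 0.28). *Penk*, the enkephalin precursor of D2 neurons, was at 724, 815 and 925 CPM against 668, 1032 and 1253 CPM (log2 FC -0.30 ± 0.074, adjusted p = 0.11). Without LacQ140_2M F4, *Penk* (log2 fold change -0.36, adjusted p = 0.000879), *Scn4b* (-0.28, adjusted p = 0.000325), *Ptpn5* (-0.28, adjusted p = 0.000425) and *Adora2a*, the adenosine receptor of D2 neurons (-0.32, adjusted p = 0.000739), passed both bounds. With that library included *Adora2a* had a log2 fold change of -0.27 and an adjusted p of 0.096. The log2 fold changes of *Drd2*, *Pde10a*, *Ppp1r1b* and *Adcy5* were -0.11, -0.091, -0.17 and -0.19 without LacQ140_2M F4, and none was called. In its absence 71 genes were called, of which 54 were signature genes in the disease direction and 29 were HD-model genes.

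Across the signature, differences were small and mostly in the disease direction. Of 3241 signature genes tested, 2237 (69.0%) had the disease sign, against 55.6% of 11136 other expressed genes. The median log2 fold change of LacQ140_8M minus LacQ140_2M was 0.06 for genes risen in LacQ140, whose median change there was 0.52, and -0.07 for fallen genes, whose median change there was -0.48. Over all expressed genes the median was 4.326e-05. Of the HD-model genes, 225 (84.6%) had the listed sign, with medians of 0.12 for the 71 risen and -0.13 for the 195 fallen. Across signature genes, which are not independent replicates, the Pearson correlation of both contrasts was 0.38 and the slope 0.13. The mice of the 2 contrasts are different.

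**Figure D2:**
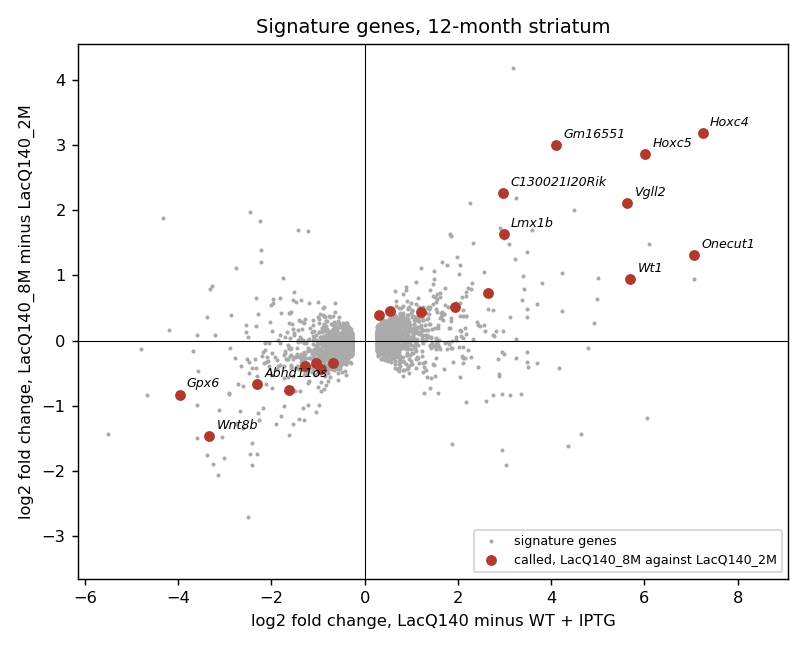
Log2 fold change of LacQ140_8M minus LacQ140_2M against that of LacQ140 minus WT + IPTG, 12-month striatum, with 1 grey point per signature gene and the 21 called genes in red. The 13 higher called genes lie in the upper right and the 8 lower ones in the lower left, and most other signature genes lie near 0 on the vertical axis.

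A disease score was computed for each mouse as the mean signed log2 CPM over the signature genes, set to 0 at the WT + IPTG mean and 1 at the LacQ140 mean. LacQ140_8M mice had scores of 0.707, 0.847 and 0.909 (lowest, median and highest), and LacQ140_2M mice of 0.608, 0.701 and 0.860. All 9 late mice lay above the early median, but the groups overlapped. The means were 0.829 ± 0.070 (SD, n = 9) and 0.702 ± 0.077 (SD, n = 10), a difference of 0.127 (p = 0.0024, two-sided exact permutation test over 92378 arrangements). LacQ140_A mice had a median of 0.671, and 2 of 9 late but 0 of 10 early mice lay inside the range of LacQ140. The signature genes were chosen in these same LacQ140 and WT + IPTG mice, which also set the scale. The distance of other groups from 0 and 1 is therefore partly built in. WT mice without IPTG had a mean of 0.196 ± 0.063 (SD, n = 9), against 0 in WT + IPTG, a gap wider than that between LacQ140_8M and LacQ140_2M. With the HD-model genes in place of the signature, WT mice had a mean of 0.029, and LacQ140_8M and LacQ140_2M differed by 0.155 (p = 0.00034, two-sided exact permutation test). The parts of IPTG itself and of this choice of genes in the score were not tested.

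**Figure D3:**
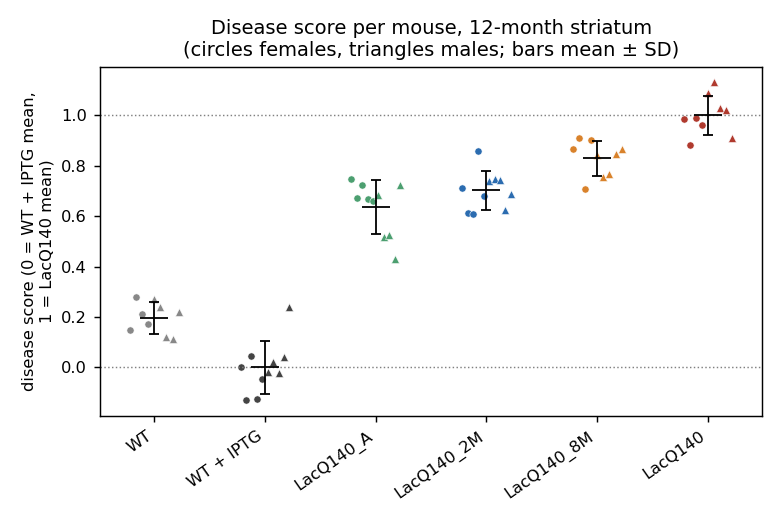
Disease score of each mouse by group, with 0 at the WT + IPTG mean and 1 at the LacQ140 mean, circles for females, triangles for males and bars for the mean ± SD. LacQ140_8M mice lie between 0.707 and 0.909 and LacQ140_2M mice between 0.608 and 0.860.

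Females and males were also set side by side. In females the mean score was 0.847 ± 0.095 (SD, n = 4) after late and 0.694 ± 0.103 (SD, n = 5) after early withdrawal, a difference of 0.152 (p = 0.056, two-sided exact permutation test over 126 arrangements). In males it was 0.815 ± 0.051 (SD, n = 5) and 0.710 ± 0.053 (SD, n = 5), a difference of 0.105 (p = 0.0079, two-sided exact permutation test over 252 arrangements). The interaction of sex and group was called for 0 of 32415 genes by edgeR and for 1, *Gm10702*, by DESeq2. That gene had an interaction log2 fold change of -30, an extreme value, and the part of low counts in it was not tested. By edgeR 1070 genes had an unadjusted interaction p-value under 0.05. Among the 21 called genes, 0 had an unadjusted interaction p-value under 0.05.

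Gene lists placed these changes among their relatives. Of 69 tested genes of the Hox, Pax, Tbx, Gata, Irx and Onecut families and *Wt1* (with the *Sine oculis* homeobox genes), 5 were called higher, against 0.0401% of all genes tested, and 0 lower, and 7 were expressed. Besides the called genes, *Hoxc6*, *Irx5*, *Pax2* (log2 FC 1.48, adjusted p = 0.29) and *Irx4* (2.02, adjusted p = 0.49) had an unadjusted p-value under 0.05, as did *Tbx20* in the other direction (-1.12, adjusted p = 0.43). Among 28 Polycomb subunits *Sfmbt2* was the single called gene, and the median log2 fold change of the 27 expressed ones was 0.04. Within 250 kb of the called genes 224 genes were tested, 6 of them called genes themselves, a distance chosen after their values were seen. Of the 218 that were not called, 29 (13.3%) had an unadjusted p-value under 0.05, against 9.89% of all genes not called.

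Clustered protocadherins, which give neurons their surface identity, had 0 of 58 genes called, with a positive sign in 42 of 57 expressed genes and a negative one in 15 and a median log2 fold change of 0.07, which was 0.0071 with the slope on transcript length as a covariate. *Pcdhb19* (log2 FC 0.33 ± 0.080, adjusted p = 0.11) and *Pcdhb2* (0.61, SE 0.148, adjusted p = 0.11) had the smallest p-values. Of 31 spiny neuron signalling genes *Gpx6* was called lower, against 0.0247% of all genes tested, and 3 of 30 expressed ones had a positive sign, against 50.03% of all expressed genes, with a median of -0.11. The 8 direct pathway and 6 indirect pathway genes had 0 called, with medians of -0.06 and -0.15. These counts and medians include LacQ140_2M F4. Without that library the median of the spiny neuron signalling genes was -0.16, and *Penk*, *Adora2a*, *Scn4b* and *Ptpn5* passed both bounds.

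Immediate early genes, which neurons induce on activity, had signs mostly opposite to those of the disease. Of 17 tested, 0 were called by edgeR, 9 had an unadjusted p-value under 0.05, against 9.95% of all genes, and 16 had a positive sign, against 50.03% of expressed genes, with a median log2 fold change of 0.31 against -0.81 in LacQ140. *Fos* (log2 FC 0.50 ± 0.198, adjusted p = 0.38) and *Arc* (0.36, SE 0.149, adjusted p = 0.40) were among them. The part of cortical markers such as *Neurod2* in the values of immediate early genes was not tested. In females alone *Npas4*, another such gene, was called higher (log2 FC 1.40).

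Transcripts of 78 expressed cytosolic ribosomal proteins and 76 nuclear oxidative phosphorylation subunits, both lists of short transcripts, had 0 called genes, and 75 and 73 of them had a negative sign, with medians of -0.08 and -0.07. The slope of log2 CPM on log2 transcript length ran from 0.267 to 0.439 with a median of 0.383 in LacQ140_8M and from 0.264 to 0.400 with a median of 0.339 in LacQ140_2M. With this slope as a covariate the medians were 0.0042 and -0.00072, and 16 genes were called, 13 of them among the 21.

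Markers of other cells were summed per library. Oligodendrocyte markers ran from 10970 to 13080 CPM in LacQ140_8M and from 10780 to 13730 CPM in LacQ140_2M, and 12 of 14 had a negative sign, 5 of them with an unadjusted p-value under 0.05, against 9.95% of all genes in either direction, with 0 called. Astrocyte markers ran from 3545 to 4486 CPM and from 3795 to 4778 CPM, endothelial and pericyte markers from 388 to 434 CPM and from 397 to 526.4 CPM, and striatal interneuron markers from 509 to 575 CPM and from 519 to 588 CPM. Blood markers ran from 157 to 424 CPM and from 177 to 728 CPM, and all 5 had a negative sign (median log2 FC -0.49), 3 of them with an unadjusted p-value under 0.05 and 0 called. Choroid plexus and ependymal markers ran from 52.2 to 359 CPM and from 49.2 to 200 CPM, and cortical excitatory neuron markers from 46.7 to 116 CPM and from 39.1 to 126 CPM. Among the cortical markers 0 were called, and *Neurod2* had a log2 FC of 1.02 (adjusted p = 0.26). Without the 7 libraries that held over 2 times the median level of cortical, subcortical, choroid plexus or blood markers, 22 genes were called, 10 of them among the 21.

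**Figure D4:**
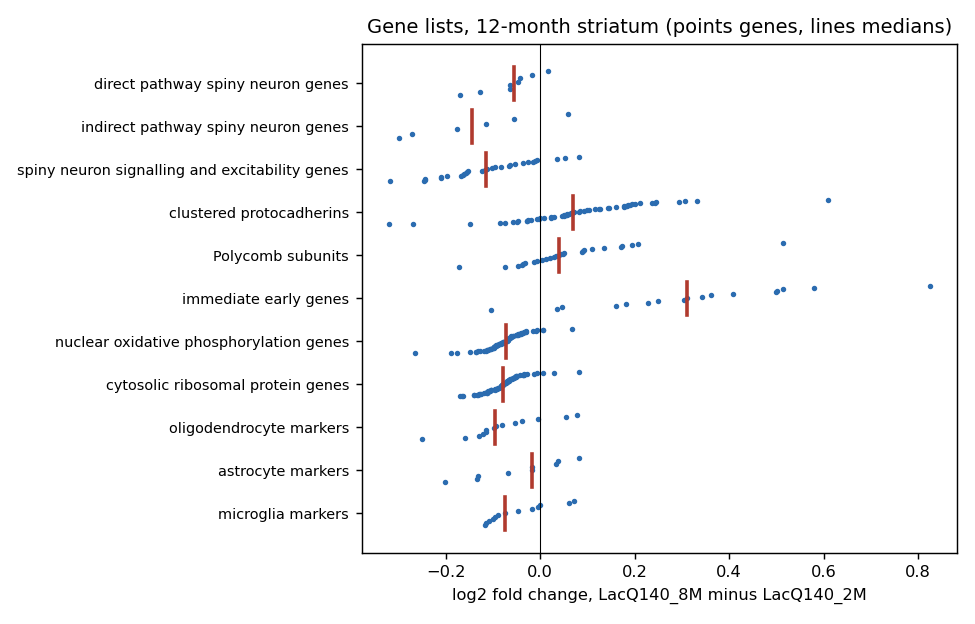
Log2 fold change of LacQ140_8M minus LacQ140_2M for expressed genes in 11 lists, with 1 point per gene and a red line at each list's median. Immediate early genes lie to the right with a median of 0.31, and ribosomal protein and oxidative phosphorylation genes lie closely left of 0 with medians of -0.08 and -0.07.

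In the cortex samples of both groups (10 mice each), 0 of 31383 genes were called (0%) by edgeR and 0 by DESeq2, and 1483 genes (4.725%) had an unadjusted p-value under 0.05. All 21 striatal genes were tested there, 11 had the same sign as in striatum, and 0 of those had an unadjusted p-value under 0.05. *Hrk* had a log2 fold change of 0.13 in cortex (adjusted p = 0.83), *Wt1* of -0.21 (adjusted p = 0.86) and *Gpx6* of 0.45 (adjusted p = 0.83). *Onecut1* had a log2 fold change of -2.72 in cortex, with an unadjusted p-value of 0.031 and an adjusted p of 0.83. The difference between tissues was not tested.

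**Figure D5:**
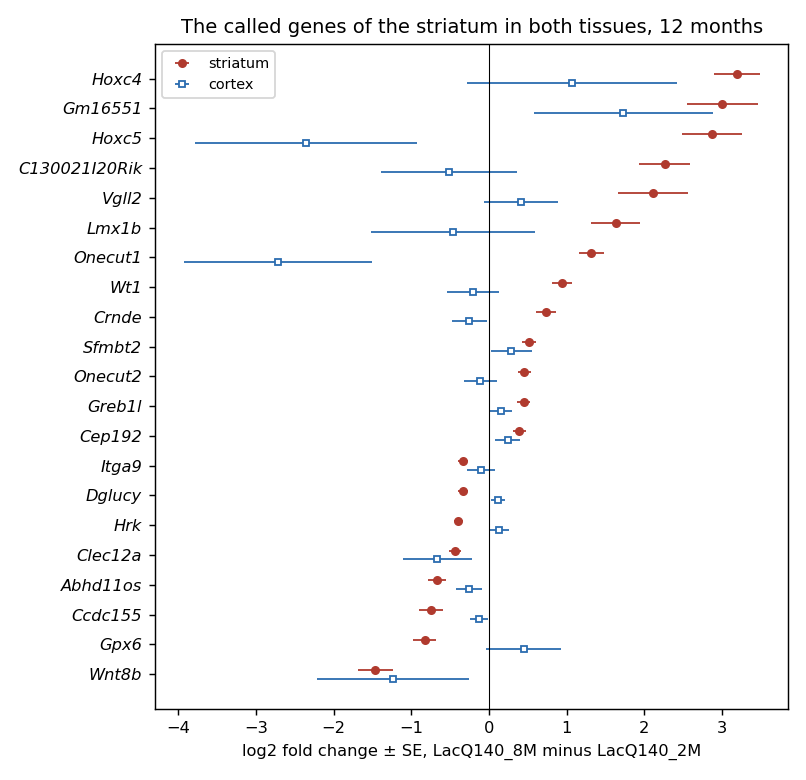
Log2 fold change ± SE of LacQ140_8M minus LacQ140_2M for the 21 called genes in striatum (filled red circles) and cortex (open blue squares), ordered by the striatal value. Striatal values run from -1.47 for *Wnt8b* to 3.19 for *Hoxc4*, and cortical values lie on both sides of 0 with wide errors for genes of low level.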

How the data were processed

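Striatum and cortex RNA of 12-month-old mice was measured by RNA-Seq on an Illumina NovaSeq, and the authors deposited expected counts per gene without normalization. The labels name build GRCm38, and the quantification program is not given in the sources used here. Of the nonzero values in the 19 libraries, 32.7% were not whole, and values were rounded. Gene names and positions came from GENCODE vM21 (54495 of 54532 identifiers matched). Groups, sex and replicate numbers came from the labels. The fit held only the libraries compared, with group as its term (edgeR 4.0.16, glmQLFit with legacy set to FALSE, TMM, Benjamini-Hochberg adjustment, R 4.3.3), on genes with at least 1 count. A gene was called when its adjusted p was below 0.05 and its level shifted by 20% or more in either direction, as in the study's Methods, which used DESeq2. Standard errors came from the F statistic, CPM from a scaling over all striatal libraries of this age, and the score from log2 CPM with a prior count of 2. The signature used LacQ140 against WT + IPTG, in a fit with WT and LacQ140_A. Lists stand as counts and medians, without a test of the list.

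The test was tried on simulated counts before use. All 19 libraries carry the same batch label. Same-numbered mice of both groups did not deviate together (9 pairs, mean correlation -0.022). All called genes are named, besides *Htt*, *Abhd1* and 7 spiny neuron genes that the study plots, and other genes were named after their values were seen. The comparison, gene lists and tests were chosen with earlier results of these data known. The 6-month table was not used here. A result on 1 gene is not reported here.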

Additional observations from a re-analysis of the deposited data

Results flagged for a closer look

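For 13 of 90 sets of values tested, each a gene, marker list or score within LacQ140_8M or LacQ140_2M, 1 library lay far from the others of its group. Chance flags about 1 in 20 independent groups, but these sets come from the same 19 libraries, so that this share is no yardstick for their number. The library LacQ140_2M F4 accounts for the lowest levels within its group of *Drd2* (146 CPM, next 197 CPM), *Adcy5* (792 CPM, next 1025 CPM) and *Scn4b* (777 CPM, next 920 CPM), of the summed indirect pathway genes (1173 CPM, next 1621 CPM) and spiny neuron signalling genes (13330 CPM, next 17010 CPM), and for the highest subcortical marker level in its group (287 CPM, next 134 CPM). Its disease score, 0.860, was the highest of its group.

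Among other LacQ140_2M libraries, *Hoxc4* stood apart in F5 (0.287 CPM, next 0.158 CPM), *Gpx6* in F2 (3.37 CPM, next 2.41 CPM) and *Vgll2* in F1 (0.0955 CPM, next 0.0451 CPM). Choroid plexus and ependymal markers stood apart in LacQ140_2M F5 (199.6 CPM, next 117 CPM) and in LacQ140_8M M4 (359 CPM, next 175 CPM), subcortical markers in LacQ140_8M F2 (157 CPM, next 105 CPM) and pituitary markers in LacQ140_2M F3 (3.31 CPM, next 2.02 CPM). The calls of *Hoxc4* and *Gpx6* held without each of these libraries.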

How the results depend on the processing

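None of the 21 called genes changed sign in any alternative run, but *Hoxc4* alone was called in all 30, and the other 20 each lost their call at least once. *Crnde*, *Dglucy*, *Itga9*, *Clec12a*, *Greb1l*, *Ccdc155* and *Vgll2* lost it both under the replicate block and without the 7 libraries high in markers of other tissues, *Gpx6* under the block, and *Gm16551*, *Onecut2*, *Lmx1b* and *Cep192* without those libraries. *Abhd11os*, *Gpx6*, *Clec12a*, *Onecut2*, *Greb1l*, *Ccdc155*, *Cep192* and *Vgll2* lost it with the length slope as a covariate. The number of called genes was 56 by DESeq2 (28 higher, 28 lower, 20 of them among the 21) and 33 with all 6 groups in the fit (17 higher, 16 lower). It was 4 in females only and 12 in males only, and 16 to 102 without 1 library. Called signature genes with the disease direction numbered 39 by DESeq2, 3 in females only, 8 in males only and 16 to 54 without 1 library. Of the HD-model genes, 7 were called with the length slope as a covariate, 0 in females only (with edgeR, 1103 genes of all at an unadjusted p-value under 0.05), 6 in males only and 10 to 29 without 1 library. The groups share replicate numbers only as labels, since 2 of 9 pairs had a correlation over 0.1 and 0 libraries correlated best with their own number. With the replicate block 16 genes were called, 13 of them with the disease direction in the signature and 6 among the HD-model genes. In cortex the replicate block gave 4 calls, all lower after late withdrawal. These were *Cfd* (log2 FC -11.47), *Adipoq* (-5.70), *Cidec* (-9.42) and *Gm5537* (-10.77), and the source of such large values was not tested. Without 1 library the cortical count was 0 each time. The interaction with sex was called for 1 gene by DESeq2 and for 0 to 1 genes without 1 library. The score difference was 0.152 in females only (p = 0.056, exact permutation test), 0.116 with the replicate block (p = 0.035, exact permutation test within pairs) and 0.116 to 0.144 without 1 library. *Drd1* changed sign in males only (log2 fold change 0.082) and without LacQ140_2M F2 (0.0077), LacQ140_8M F2 (0.017) or LacQ140_8M F5 (0.00058), with a range of -0.050 to 0.017 without 1 library, and so did the ribosomal protein median with the length slope as a covariate (0.0042). The cause of these shifts was not tested. Genes under about 1 CPM rest on few counts per library.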
